A study of Arabidopsis thaliana with 4 samples.

Results

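The difference between the gl3 egl3 double mutant and the ttg1 mutant of Arabidopsis thaliana was measured across the genome, from 1 array of each genotype, meaning 1 deposited column. These are 2 of the 4 samples of the series, and were chosen because the labels of both refer to a Landsberg erecta (Ler) wild type. The other samples are wild type and the gl1 mutant, for which no accession is given. All 4 were seedlings grown at 22 °C under 16 h light and 8 h dark, and 25 ng of total RNA was amplified before labelling. An age of 20 days is given for gl3 egl3, ttg1 and wild type. The labels of ttg1, gl1 and wild type state that only green tissue was taken, and that of gl3 egl3 does not. The series text names another second gene in the double mutant (gl3egl1) than the sample title does, and the title was followed here. The alleles are not given, and nothing says how many plants or plantings a sample holds. Every deposited wild-type value was a multiple of 0.005, unlike those of the mutants, and whether that column is 1 array or a mean of several is not stated; it is called an array here.

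Leaf hairs (trichomes) are single epidermal cells whose fate is set by a complex of a MYB factor, a bHLH factor and a WD40 protein. TTG1 is the WD40 protein, GL1 the MYB factor, and the bHLH subunit is GL3 or EGL3, which are in part redundant. The same WD40 protein works with other MYB and bHLH partners in anthocyanin synthesis, in seed coat development and in root hair patterning. Both genotypes compared here are trichomeless, so the comparison sets the loss of the shared WD40 subunit beside the loss of a pair of bHLH subunits. No probe set is named here for GL1, GL3, EGL3 or TTG1, so the genotypes could not be checked on the mutated genes.

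Values are log2 signals of probe sets after quantile normalization of the 4 columns, and every difference is gl3 egl3 minus ttg1. With 1 array a side, no difference has a replicate check, no p-value is given, and a difference of at least 1 (2-fold) served only as a rule of size. A transcript level in whole seedlings is a mean over cell types, so fewer cells of a type and less RNA per cell cannot be told apart. A gene labelled below the filter is one whose highest value over the 4 arrays did not reach 6.26, the median of all values.

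Tissue markers were compared first, as far as they are named. RCA, the activase of Rubisco in green tissue, read 12.23 in ttg1 and 12.30 in gl3 egl3. Of 4 named root and root hair genes, EXPA7, EXPA18 and the peroxidase gene AT5G66390 were below the filter in all 4 arrays. PYK10, a beta-glucosidase abundant in roots, read 11.18 in ttg1 and 10.91 in gl3 egl3, with 11.18 in wild type and 11.34 in gl1. RCA and PYK10, the latter being the 1 root gene above the filter, were thus within 2-fold, and EXPA7, near the floor, differed by 1.02 in the deposited values. Other genes of green tissue are given below: 12 nuclear photosynthesis genes were within 2-fold, and 18 of 69 chloroplast-encoded genes were 2-fold higher in gl3 egl3 (26.1% against 4.87% of all named genes). Of 3 named guard cell genes 1 passed the filter, and their differences ranged from -0.84 to 0.19. The 3 named genes of flowers and pollen and the 2 of seeds were below the filter, as was GUT2, the 1 named gene of xylem and fibre. AOP3, a glucosinolate gene known for its expression in leaves of Ler but not of Columbia, read 8.15 in ttg1 and 7.75 in gl3 egl3, against 4.27 in wild type and 4.69 in gl1. It was high in both arrays whose labels name Ler and low in the remaining pair.

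Some measures of the arrays themselves also differed between the mutants. The 27 bacterial control probe sets, which no plant transcript should match, were all higher in gl3 egl3, by a median of 0.85 (range 0.33 to 1.41) with the median of each array removed. The 18 hybridization spikes were all higher too, by a median of 0.44. The control probe set for 5S ribosomal RNA had deposited values of 8.30 in ttg1 and 9.57 in gl3 egl3, beside 6.31 in wild type and 7.97 in gl1. The gap between the 3′ and 5′ probe sets, a measure of RNA and amplification quality, was 3.74 in ttg1 and 4.23 in gl3 egl3 for actin. For GAPDH it was 1.14 and 1.47, and for ubiquitin 2.56 and 2.86. Another pair of probe sets for each gene gave gaps of other sizes. For actin its 3′ probe set read 11.35 in ttg1 and 11.88 in gl3 egl3, and its 5′ probe set 8.93 and 8.44. For GAPDH these were 10.60 and 10.65, and 9.56 and 9.57. For ubiquitin they were 12.11 and 12.65, and 9.95 and 10.39. The size of the widening thus depended on the pair. In the latter it was small for GAPDH and ubiquitin, and for actin it was larger than in the first pair. The part of these array differences in the results that follow was not tested.

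Across the 12601 probe sets above the filter, 535 were at least 2-fold higher in gl3 egl3 than in ttg1 (4.25%) and 470 at least 2-fold lower (3.73%). The balance turned with the filter: one on the mean of the 4 values left 280 higher and 365 lower, and one at the 75th percentile 183 and 210. Of the 535 and 470, 332 and 241 name a single gene. Over all 22746 probe sets the counts were 1052 (4.62%) and 790 (3.47%). Differences of 4-fold or more (2 on the log2 scale) were fewer, with 94 higher and 25 lower. The median difference above the filter was -0.01 and its SD was 0.58. In the deposited values, before quantile normalization, gl3 egl3 was higher by a median of 0.29 over all probe sets but by 0.01 over those above the filter. The deposited offset thus lay among the low signals.

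The pair of arrays was less alike than those of gl1 and wild type, and more alike than gl3 egl3 and either of them. In the same probe sets, 7.98% were 2-fold apart in 1 direction or the other between gl3 egl3 and ttg1. The share was 2.87% between gl1 and wild type, 3.95% between ttg1 and gl1, 5.56% between ttg1 and wild type, 11.3% between gl3 egl3 and gl1, and 14.0% between gl3 egl3 and wild type. These pairs share arrays, so the shares are not independent of one another, and a mean of several arrays in the wild-type column would change what its shares measure.

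Among the probe sets past 2-fold, gl3 egl3 stood apart from the other arrays more often than ttg1 did, which the filter in part fixed. Among the 535 higher probe sets, gl3 egl3 was the highest of the 4 arrays in 503 and 2-fold above all the others in 358, while ttg1 was the lowest in 163 and 2-fold below all the others in 18. Among the 470 lower probe sets, gl3 egl3 was the lowest array in 454 and 2-fold below the rest in 218. ttg1 was the highest array in 217 of those 470 and 2-fold above the rest in 7. Low signals were common: ttg1 was under the filter level in 308 of the 535, and wild type and gl1 were under it too in 265. Those 265 passed the filter through gl3 egl3 alone, so its place as the highest array was fixed there. In 233 of the 470 it was gl3 egl3 that read under the filter level. These counts by array were not repeated under other filters.

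**Figure D1:**
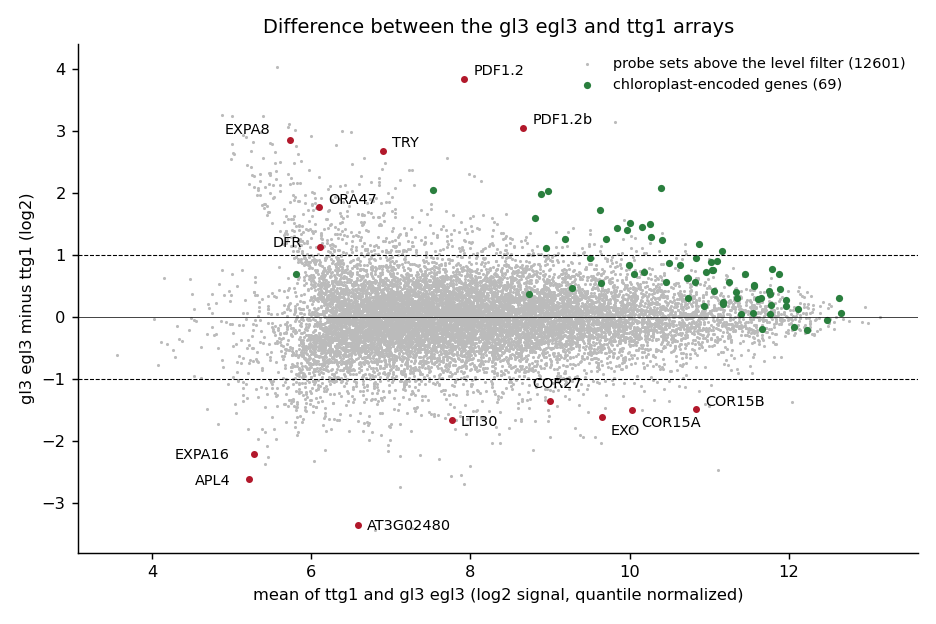
Difference between gl3 egl3 and ttg1 (log2, vertical axis) against the mean of the same 2 arrays (log2 signal, horizontal axis), with 1 grey point for each of 12601 probe sets above the filter. Green points are the 69 chloroplast-encoded genes, red points are genes named in the text, and dashed lines mark 2-fold. PDF1.2 stands at 3.84, AT3G02480 at -3.34, and most green points lie above 0.

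Among named genes, 328 of the 6756 above the filter were 2-fold higher in gl3 egl3 (4.85%) and 238 were 2-fold lower (3.52%). A stricter rule asked for 2-fold in the same direction under quantile, cyclic loess and median scaling, and 284 higher and 148 lower genes met it. Ranked by the smallest of these 3 differences, PDF1.2, PDF1.2b and 10 genes known here by locus number led the higher genes. Those 10, among them AT5G12450, AT5G62080, AT3G53770 and the annotated pseudogene AT2G02200, had all 3 other arrays below the filter level. AT2G02200 read 3.54 in ttg1 and 7.58 in gl3 egl3, with 3.58 in wild type and 3.74 in gl1. Its probe set is of a class that can match several similar genes.

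The lower genes were led by AT3G02480, at 8.26 in ttg1 and 4.91 in gl3 egl3, a 10.2-fold difference. Wild type read 6.22 and gl1 7.55, both between the mutants. AT4G22470 followed, at 9.26 in ttg1 and 6.57 in gl3 egl3, with 9.44 in wild type and 8.53 in gl1. Among the 12 leading lower genes, APL4 (AT2G21590) was the only one with a symbol. It encodes a large subunit of ADP-glucose pyrophosphorylase, which makes the precursor of starch. APL4 read 3.91 in gl3 egl3 and 6.52 in ttg1, beside 4.74 in wild type and 5.76 in gl1. The difference was -2.61, and -1.91 in the deposited values. The single array of gl3 egl3 was the lowest of the 4 for each of the 12 genes.

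**Figure D2:**
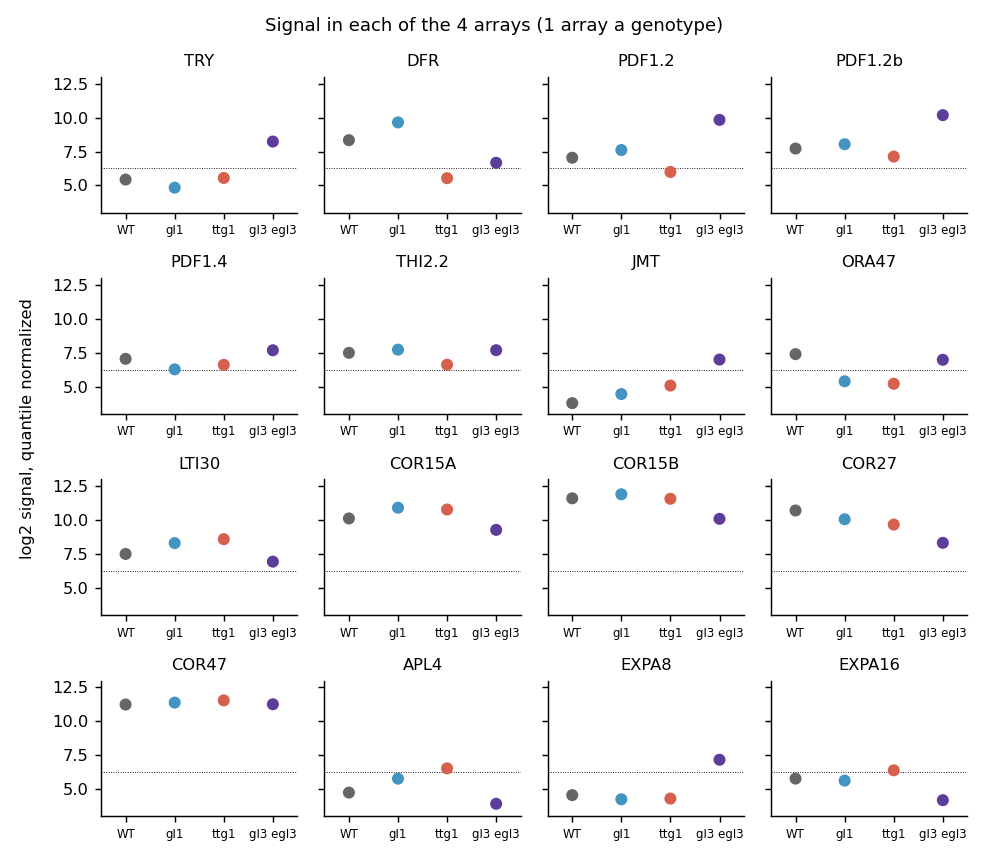
Log2 signal (vertical axis) of 16 genes in each of the 4 arrays, 1 point per genotype, with a dotted line at the filter level of 6.26. TRY and EXPA8 are above the line only in gl3 egl3, the PDF1.2 pair is lowest in ttg1 and highest in gl3 egl3, and COR15A, COR15B, COR27 and LTI30 are lowest in gl3 egl3.

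Of 25 listed genes of trichome fate, 4 are named here and 2 of them passed the filter, so most of the pathway was not analysed here. TRY (AT5G53200), a small MYB protein that moves between cells and inhibits trichome fate, read 5.56 in ttg1 and 8.24 in gl3 egl3, with 5.44 in wild type and 4.84 in gl1. It was 6.43-fold higher in gl3 egl3 than in ttg1, and gl3 egl3 alone was above the filter level. SIM, an inhibitor of cyclin-dependent kinases that keeps trichomes from dividing, read 6.54 in ttg1 and 6.98 in gl3 egl3. GIS, a zinc finger factor that promotes trichome initiation, read 4.60 and 4.73, and ATMYC1, a bHLH relative of GL3, read 5.83 and 5.14, both below the filter. Over all 13356 named genes, 651 were 2-fold higher (4.87%) and 421 were 2-fold lower (3.15%), against 1 and 0 of these 4.

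Genes of trichome growth and shape gave no 2-fold difference in either direction among 6 named. The range was -0.30 for BRK1, a subunit of the SCAR/WAVE complex that controls actin, to 0.53 for CRK, a subunit of the ARP2/3 complex that nucleates actin. AN, which shapes branches through the cytoskeleton, read 7.47 in ttg1 and 7.96 in gl3 egl3. SPK1, an activator of ROP GTPases, read 6.79 and 6.93. PIR121, another SCAR/WAVE subunit, read 7.23 and 7.05. The median of the 6 was -0.01, beside -0.02 over all named genes, but it was 0.11 in the deposited values.

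Anthocyanin synthesis, another known output of the complex, had 4 named late genes. DFR (AT5G42800), the reductase that opens the late anthocyanin branch, read 5.54 in ttg1 against 6.68 in gl3 egl3, and 8.35 in wild type and 9.66 in gl1. Both mutants were thus below wild type and gl1, and ttg1 was lower than gl3 egl3 by a further log2 difference of 1.14. UF3GT, which adds xylose to anthocyanins, did not share that order, at 6.71 in gl3 egl3 and 6.83 in ttg1, beside 7.90 in wild type and 8.15 in gl1. DFR and UF3GT were both lower in ttg1 and gl3 egl3 than in wild type and gl1, and AOP3 split the arrays into the same pairs. Genotype and accession cannot be told apart for that split. UGT78D2, a flavonoid 3-O-glucosyltransferase, read 7.98 in ttg1 and 8.34 in gl3 egl3, and AT5MAT, an anthocyanin malonyltransferase, read 5.84 and 5.98. Of these 4 late genes 1 was 2-fold higher (25.0% against 4.87% of all named genes) and 0 were lower.

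Of 3 named early flavonoid genes 0 were 2-fold apart, against 4.87% higher and 3.15% lower of all named genes. Their median difference was 0.19, beside 0.25 for the 4 late genes. CHIL, an enhancer of flavonoid production, read 7.27 in both ttg1 and gl3 egl3, below 7.92 in wild type and 8.25 in gl1. For that split too, genotype and accession cannot be told apart. UGT78D1, a flavonol rhamnosyltransferase, read 9.87 and 10.06. UGT78D3, a flavonol arabinosyltransferase, read 4.59 and 5.55 below the filter. BAN, the anthocyanidin reductase of the seed coat, was below the filter in all 4 arrays.

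Of 53 listed genes of jasmonate, the hormone of wounding and defence against necrotrophs, 10 are named here. Of these 10, 6 were 2-fold higher and 0 were 2-fold lower (60.0% against 4.87% of all named genes). The median of the 10 differences was 1.07. All 10 differences were above 0, except that the difference of MYC3 was -0.02 once array medians were subtracted. The members and lists were chosen with results of these arrays known, so the count describes them and is no test.

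The defensins led the jasmonate group. PDF1.2 (AT5G44420), a plant defensin used as a marker of combined jasmonate and ethylene signalling, read 6.0 in ttg1 and 9.84 in gl3 egl3, with 7.05 in wild type and 7.62 in gl1. That is a 14.4-fold difference with wild type and gl1 between the 2 mutants. PDF1.2b (AT2G26020) had the same order, at 7.14 in ttg1 against 10.19 in gl3 egl3, and 7.73 in wild type and 8.05 in gl1, an 8.33-fold difference. Its probe set can match related sequences, so the 2 defensins may not be separate measurements. LCR67, known also as PDF1.1, read 4.05 in ttg1 and 5.89 in gl3 egl3, below the filter. PDF1.4 read 6.61 and 7.69, with 7.05 in wild type and 6.28 in gl1, and its difference of 1.08 was 0.96 after median scaling.

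Other jasmonate genes differed less or had low signals. JMT (AT1G19640), which makes methyl jasmonate, read 5.08 in ttg1 against 7.0 in gl3 egl3, and 3.79 in wild type and 4.45 in gl1, a 3.78-fold difference. THI2.2, a thionin, read 6.62 in ttg1 and 7.69 in gl3 egl3, with 7.50 in wild type and 7.73 in gl1, and its difference of 1.07 was 0.95 after median scaling. In THI2.2 it was therefore ttg1 that stood apart from the other 3 arrays. The thionin THI2.1 read 4.58 and 5.39 below the filter. Among the regulators and enzymes, the bHLH factors MYC3 and MYC4 differed by 0.10 and 0.77 and OPCL1, a ligase of jasmonate synthesis, by 0.28. ORA47 (AT1G74930), an AP2/ERF factor that activates jasmonate synthesis genes, was listed with its own family and is not among the 10. It read 6.98 in gl3 egl3 and 5.21 in ttg1, beside 7.40 in wild type and 5.40 in gl1. For ORA47 wild type and gl3 egl3 were the higher pair and gl1 and ttg1 the lower pair.

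Secreted peptides overlapped with the jasmonate genes. Among 32 named lipid transfer, defensin and signalling peptide genes, 8 were 2-fold higher (25.0% against 4.87% of all named genes) and 1 was lower (3.12% against 3.15%). Of the 8, 5 are the defensins and thionin counted above, which leaves 3 of 26 higher (11.5%). The median of the 32 was 0.36, and 1.01 in the deposited values, where low signals carry the offset and 17 were 2-fold higher. RALFL28, a peptide of the rapid alkalinization factor family, read 4.78 in ttg1 and 7.16 in gl3 egl3, with 4.32 in wild type and 4.41 in gl1. RALFL31 read 6.77 and 7.86, and RALFL27, below the filter, 4.39 and 5.92. PDF2.1 was the lower member, at 7.08 in ttg1 and 5.96 in gl3 egl3, a difference of -1.12 that was -0.94 under cyclic loess.

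**Figure D3:**
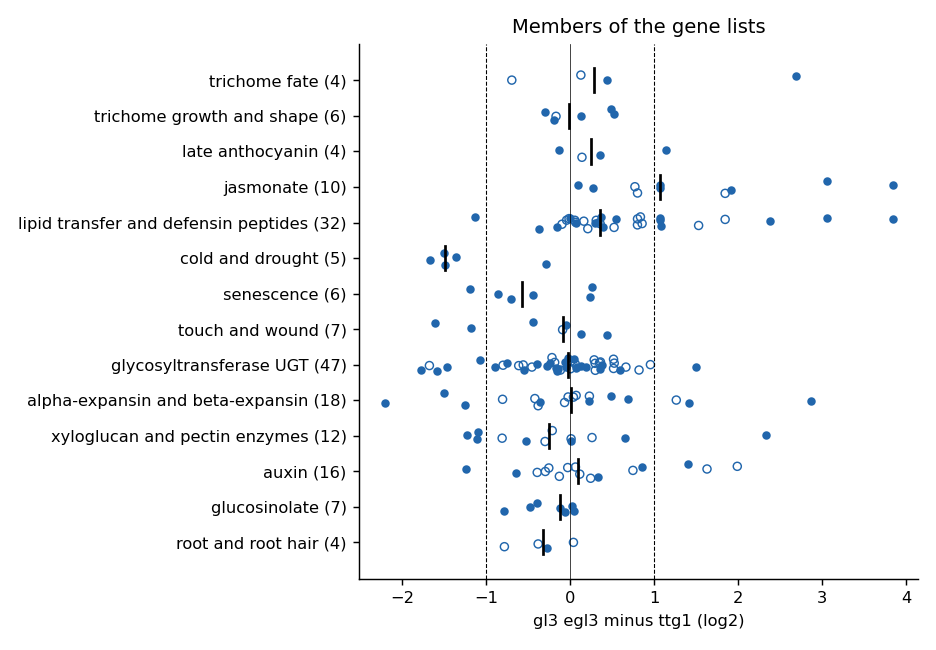
Difference between gl3 egl3 and ttg1 (log2, horizontal axis) of each named member of 14 gene lists, with the number of members in brackets, a bar at each list's median and dashed lines at 2-fold. Filled points passed the filter and open points did not. The jasmonate points reach 3.84 and the cold and drought points lie between -1.66 and -0.29.

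Of 59 listed genes of cold and drought, 5 are named here. Of these 5, 4 were 2-fold lower and 0 were higher (80.0% against 3.15% of all named genes), with a median of -1.48. Over the other scalings that median lay between -1.33 and -1.53. LTI30 (AT3G50970), a dehydrin that protects membranes in cold, read 8.59 in ttg1 and 6.93 in gl3 egl3, with 7.50 in wild type and 8.30 in gl1, a 3.16-fold difference.

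The neighbouring genes COR15A and COR15B encode chloroplast proteins that protect membranes during freezing. COR15A (AT2G42540) read 10.78 in ttg1 against 9.28 in gl3 egl3, and 10.12 in wild type and 10.92 in gl1, which is 2.83-fold lower. COR15B (AT2G42530) read 10.10 in gl3 egl3 and 11.58 in ttg1, beside 11.61 in wild type and 11.91 in gl1, which is 2.79-fold lower. For both, gl3 egl3 was the lowest array and the other 3 lay within 1 log2 unit of one another. COR27, a cold-induced repressor of the circadian clock, read 8.32 in gl3 egl3 and 9.67 in ttg1, beside 10.71 in wild type and 10.06 in gl1, and was 2.55-fold lower. COR47, another dehydrin, did not share the size of difference, at 11.54 in ttg1 and 11.26 in gl3 egl3.

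Few clock genes are named. GI, a component of the clock that promotes flowering in long days, read 6.58 in ttg1 and 5.30 in gl3 egl3, with 5.38 in wild type and 6.47 in gl1. Its difference of -1.28 was -0.99 in the deposited values. TIC, a clock regulator, read 6.96 and 6.88, and HYH, a bZIP factor of light signalling, 8.47 and 9.20. The time of day at harvest is not given.

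The chloroplast genome was read higher as a group in gl3 egl3. It encodes core subunits of the photosynthetic complexes, part of the plastid ribosome and the plastid RNA polymerase. Of 69 named chloroplast-encoded genes, 18 were 2-fold higher (26.1% against 4.87% of all named genes) and 0 were lower (against 3.15%). A difference above 0 was found in 65 of the 69, against 6432 of all 13356 named genes (48.2%). The median was 0.64 and lay between 0.63 and 0.83 over the other scalings. In 60 of the 69, gl3 egl3 was the highest of the 4 arrays, while ttg1 was the lowest in 12, and wild type was above ttg1 in 34.

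**Figure D4:**
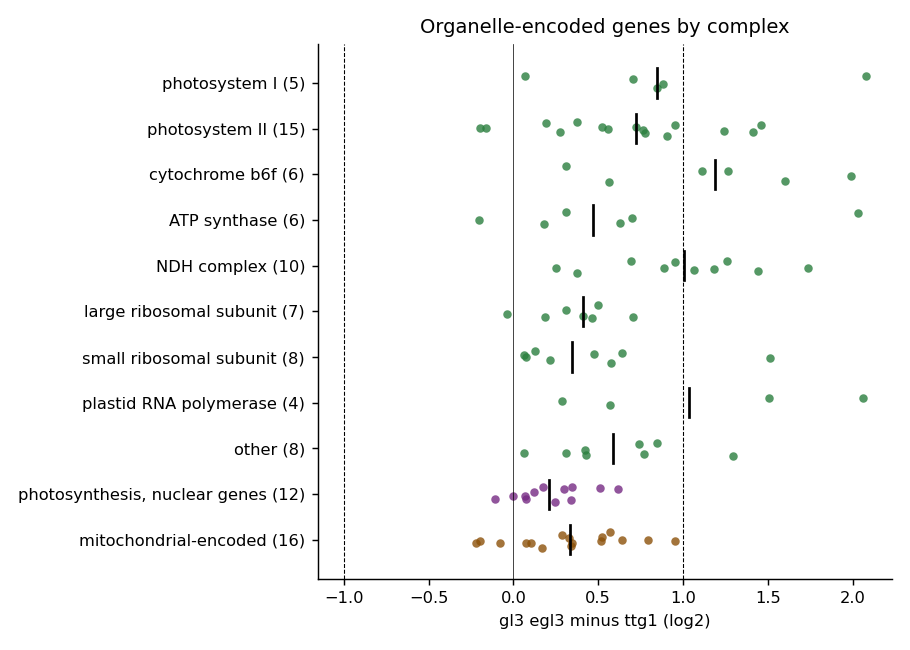
Difference between gl3 egl3 and ttg1 (log2, horizontal axis) of each organelle-encoded gene, grouped by complex with the number of genes in brackets, and of nuclear photosynthesis genes. Short bars are medians and dashed lines mark 2-fold. The cytochrome b6f median stands at 1.19, the NDH complex at 1.01 and the nuclear photosynthesis genes at 0.21. The sets were not matched for signal.

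The complexes differed in how many members passed 2-fold. In the cytochrome b6f complex, which carries electrons between the photosystems, 4 of 6 genes were 2-fold higher, with a median of 1.19. petD of that complex read 7.89 in ttg1 against 9.88 in gl3 egl3, and 7.42 in wild type and 7.29 in gl1, while petA read 10.58 in ttg1 and 10.89 in gl3 egl3. In the NDH complex of cyclic electron flow, 5 of 10 were 2-fold higher, with a median of 1.01. ndhJ was its most distant member, at 10.50 in gl3 egl3 and 8.76 in ttg1, beside 8.37 in wild type and 8.69 in gl1. The 4 genes of the plastid RNA polymerase had a median of 1.04, with rpoB at 6.49 in ttg1 and 8.56 in gl3 egl3 and rpoA at 11.48 and 11.76.

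The photosystems themselves were less uniform. Photosystem I had 1 of 5 genes past 2-fold, psaC, which read 9.36 in ttg1 and 11.44 in gl3 egl3, with 10.03 in wild type and 9.07 in gl1. psaB of the reaction centre read 12.63 in ttg1 and 12.70 in gl3 egl3. Photosystem II had 3 of 15 past 2-fold and a median of 0.73. psbA, which encodes the D1 protein, read 11.30 in ttg1 against 11.83 in gl3 egl3, and 11.84 in wild type and 11.39 in gl1, so that wild type and gl3 egl3 were level. rbcL, the large subunit of Rubisco, read 10.92 in gl3 egl3 and 9.62 in ttg1, beside 8.75 in wild type and 9.11 in gl1. The 4 genes with a difference below 0 were atpB (-0.20), psbM (-0.20), psbC (-0.16) and rpl36 (-0.04).

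ATP synthase and ribosome genes had the lower medians. In ATP synthase 1 of 6 was past 2-fold, atpI, with a difference of 2.03 and a signal of 7.96 in ttg1. The large ribosomal subunit had 0 of 7 past 2-fold and a median of 0.41, and the small subunit 1 of 8, rps14, and a median of 0.35.

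The size of these differences varied with signal. Of 20 chloroplast-encoded genes with a mean signal from 8 to 10, 13 were 2-fold higher, with a median of 1.28. Of 47 with a mean signal of at least 10, 4 were 2-fold higher (8.51%), with a median of 0.43. Other named genes in these ranges had medians of -0.004 and -0.05, and 1.87% and 0.537% of them were 2-fold higher. ndhF and rpoB, with differences of 0.70 and 2.06, had lower mean signals and are in neither range. The 5S ribosomal RNA control was also higher in gl3 egl3, by 1.22 after median subtraction. The 3′ to 5′ gaps given above were wider there, by amounts that varied with the gene and the pair of probe sets. Their part in the chloroplast result was not tested.

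Nuclear genes for the same photosynthetic machinery stayed within 2-fold, but their signals were higher. Their median signal in ttg1 was 11.92, against 10.59 for the chloroplast-encoded genes, and the sets were not matched for signal. Chloroplast-encoded genes of high signal also differed less, as given above. All 12 named passed the filter, 10 were above 0, and the median was 0.21, with a range from -0.11 for LHCB4.1 to 0.62 for LHCB4.2, both antenna proteins of photosystem II. PSAE-1, a photosystem I subunit, read 12.10 in ttg1 and 12.45 in gl3 egl3. SBPASE and PRK, enzymes of the Calvin cycle, differed by 0.07 and 0.18. Among 9 genes of chlorophyll and carotenoid synthesis, HEMA3, below the filter, was the 1 gene past 2-fold (11.1% higher, against 4.87% of all named genes). PORB and CHLM, which act in chlorophyll synthesis, differed by -0.08 and 0.33.

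Of 16 mitochondrial-encoded genes, 7 passed the filter, so many had low signals. Past 2-fold were 0 of the 16, against 4.87% higher and 3.15% lower of all named genes. A difference above 0 was found in 13, against 48.2% of all named genes, and the median was 0.34. In the deposited values 3 of the 16 were 2-fold higher. nad4, a subunit of respiratory complex I, read 9.22 in ttg1 and 10.17 in gl3 egl3, with 9.56 in wild type and 9.73 in gl1. cox1, of cytochrome oxidase, read 9.38 in ttg1 and 10.03 in gl3 egl3, with 9.22 in wild type and 8.78 in gl1. nad5 did not have gl3 egl3 as its highest array, at 8.98 in wild type and 8.71 in gl3 egl3.

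Cell wall genes differed in both directions. Of 18 named expansins and expansin-like genes, whose proteins loosen walls, 3 were 2-fold higher and 3 were 2-fold lower (16.7% each way, against 4.87% and 3.15% of all named genes). EXPA8 (AT2G40610) read 4.29 in ttg1 against 7.16 in gl3 egl3, and 4.55 in wild type and 4.24 in gl1, a 7.30-fold difference. EXPA16 (AT3G55500) read 6.38 in ttg1 against 4.18 in gl3 egl3, and 5.77 in wild type and 5.62 in gl1, a difference of -2.20 that was -1.55 in the deposited values. The 2 alpha-expansins thus stood on opposite sides in gl3 egl3.

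The expansin-like genes also split. EXLA1 read 9.41 in gl3 egl3 and 10.91 in ttg1, beside 10.15 in wild type and 10.38 in gl1, and EXLA2 read 8.57 in ttg1 and 7.33 in gl3 egl3. EXLA3 went the other way, at 5.28 in ttg1 and 6.70 in gl3 egl3. EXPB5, below the filter, read 3.82 and 5.09. Among 12 enzymes that act on xyloglucan and pectin, 1 was higher and 3 were lower (8.33% and 25.0%, against 4.87% and 3.15% of all named genes). XTH26 read 4.29 in ttg1 and 6.63 in gl3 egl3, while XTH16, XTH18 and XTH33 had differences of -1.11, -1.09 and -1.22. XTH proteins cut and rejoin xyloglucan chains. The list's median of -0.25 was 0.29 in the deposited values and 0.23 after median scaling. EXO (AT4G08950), an apoplastic protein of brassinosteroid-promoted growth, read 10.46 in ttg1 and 8.85 in gl3 egl3, with 10.22 in wild type and 9.77 in gl1, and was 3.05-fold lower.

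Glycosyltransferases of the UGT family, which attach sugars to hormones and secondary metabolites, had 1 member higher and 5 lower of 47 named (2.13% and 10.6%, against 4.87% and 3.15% of all named genes). In the deposited values the counts were 7 and 4. UGT72B3 was the higher one, at 5.50 in ttg1 and 7.0 in gl3 egl3. The lower ones were UGT73B4, UGT73B5, UGT73C1, UGT76B1 and, below the filter, UGT76E12. UGT73B5 read 8.17 in ttg1 against 6.59 in gl3 egl3, and 8.39 in wild type and 7.37 in gl1. UGT76B1, which glucosylates salicylic acid and isoleucic acid, read 6.58 in gl3 egl3 and 8.04 in ttg1, beside 8.25 in wild type and 6.76 in gl1. In UGT76B1, as in UGT73B4 at 8.80 in ttg1 and 7.73 in gl3 egl3, with 9.27 in wild type and 7.77 in gl1, gl1 and gl3 egl3 were the lower pair. All 7 named UGT73 genes had a difference below 0, but UGT73C2, UGT73C7 and UGT73D1, all below the filter, were above 0 in the deposited values.

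The same pairing of gl1 with gl3 egl3 was seen in some stress genes. WRKY6, a factor of senescence and phosphate homeostasis, read 6.30 in gl3 egl3 and 7.49 in ttg1, beside 7.37 in wild type and 6.33 in gl1, a 2.28-fold difference. CML38, a calcium sensor induced by wounding and low oxygen, read 9.69 in ttg1 against 8.52 in gl3 egl3, and 10.08 in wild type and 8.60 in gl1. Of 6 named senescence genes, WRKY6 was the 1 past 2-fold (16.7% lower, against 3.15% of all named genes), and the median was -0.57. Of 7 named touch and wound genes, EXO and CML38 were 2-fold lower (28.6% against 3.15%), and the median was -0.09. STZ, a zinc finger repressor induced by many stresses, read 8.27 in ttg1 and 8.22 in gl3 egl3, with 9.74 in wild type and 7.24 in gl1, a difference of -0.04 between the mutants. Glucosinolate genes gave 0 of 7 past 2-fold, with AOP1 at -0.79 as the most distant.

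Auxin genes were mostly of low signal, with 5 of 16 named above the filter, 3 of the 16 higher (18.8% against 4.87% of all named genes) and 1 lower (6.25% against 3.15%). In the deposited values 7 were higher and 0 lower. GH3.3, which conjugates auxin to amino acids, read 6.30 in ttg1 against 5.07 in gl3 egl3, and 5.17 in wild type and 5.21 in gl1. It was set apart by ttg1, through which alone it passed the filter, and its difference of -1.23 was -0.86 in the deposited values. GH3.17, of the same enzyme family, read 5.05 in ttg1 and 6.46 in gl3 egl3, with 5.17 in wild type and 5.30 in gl1. IAA30 and IAA31, of the Aux/IAA repressor family, were higher by 1.63 and 1.99 below the filter.

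Genes in which the mutants lay on opposite sides of both wild type and gl1 by at least 0.5 were few, with 5 higher and 13 lower. Besides the PDF1.2 pair, the higher ones were AT2G28570, AT5G41400 and BPEp. AT5G41400 and BPEp passed the filter through gl3 egl3 alone, so its place as the highest array was fixed for them. BPEp, a bHLH factor known for limiting petal size, read 6.37 in gl3 egl3 and 5.30 in ttg1, beside 5.82 in wild type and 5.84 in gl1. Its difference of 1.07 was 0.97 with the 2 columns normalized alone. The lower ones included AT3G02480, APL4, EXPA16 and NDB2. APL4 and EXPA16 passed the filter through ttg1 alone, so the place of ttg1 as the highest array was fixed for them. NDB2, an NAD(P)H dehydrogenase of the mitochondrial inner membrane, read 5.35 in gl3 egl3 and 6.97 in ttg1, beside 6.32 in wild type and 6.06 in gl1.

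Genes in which ttg1 alone was 2-fold from every other array numbered 3 above and 10 below. GH3.3, AT2G37870 and AT4G11000 were above. Each passed the filter through ttg1 alone, so the place of ttg1 as the highest array was fixed for them. The difference of AT4G11000, -1.02, was -0.81 in the deposited values, -0.87 after median scaling and -0.95 with the 2 columns normalized alone. AT2G37870 read 7.24 in ttg1 and 5.10 in gl3 egl3, with 5.68 in wild type and 6.19 in gl1. The genes below included DFR, PCN, AT2G22100 and AT4G00895. PCN, a WD40 protein of embryo and shoot development, read 5.45 in ttg1 and 6.78 in gl3 egl3, with 7.27 in wild type and 6.94 in gl1, and AT2G22100 read 6.63 in ttg1 against 8.38 in gl3 egl3, and 8.69 in wild type and 8.32 in gl1. These 2 genes were low in ttg1 and their values in the other 3 arrays lay within 0.5 of one another.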

How the data were processed

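Expression was measured on Affymetrix ATH1 arrays, with 1 deposited column for each of wild type, gl1, ttg1 and gl3 egl3. The authors deposited log2 values per probe set, and per the submitters' processing notes they came from RMA, with no version or setting stated there. Of 22810 probe sets, 64 controls were left out before normalization and described separately from the deposited log2 values. Deposited columns differed in spread, with an SD of 2.34 in ttg1 and 2.01 in gl3 egl3 and a 25th percentile of 4.12 and 4.93, so all 4 were quantile normalized with limma 3.58.1 in R 4.3.3. Wild type and gl1 thus enter the normalization and the filter. Later steps used Python 3.11.15 with pandas 2.3.3.

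A probe set passed the filter where its highest normalized value reached the median of all values (6.26). Names came from the platform annotation, updated to RefSeq TAIR10.1: 13513 probe sets name 1 gene, 503 name several and 8730 are unnamed here. A RefSeq match was found for 13436. For each of 13356 genes the probe set of highest mean was kept, and 146 genes had over 1. The annotation's build and that of the array design were not set against each other, so no coordinates are given.

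Genes were named by rule: the 12 higher and 12 lower with the largest smallest difference over quantile, cyclic loess and median scaling; up to 6 a direction with wild type and gl1 both between the mutants, at least 0.5 from each; up to 6 a direction with ttg1 alone 2-fold from the rest; members of 45 lists, of which 1 had no named member; and control probe sets. Members and lists were chosen with earlier results of these data known, and 11 list entries were removed because the symbol belongs to another gene. The ranges of signal used for chloroplast-encoded genes were chosen after their values were seen. The counting was tested on simulated data. No test between genotypes is possible with 1 array a side, and the number of arrays limits the precision. Other scalings, filters, probe set rules and column sets were tried.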

Additional observations from a re-analysis of the deposited data

Results flagged for a closer look

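The control probe set for 5S ribosomal RNA lies outside the comparison of genes and was higher in all 3 mutants than in the wild-type column. After each array's median was subtracted, it was higher than in wild type by 2.81 in gl3 egl3, by 1.60 in ttg1 and by 1.19 in gl1. The 25S ribosomal RNA control read 7.36 in ttg1 and 7.14 in gl3 egl3 in the deposited values. With 1 column per genotype, no spread within a group could be set beside these values.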

How the results depend on the processing

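No paired analysis was possible because each genotype has 1 deposited column. Against 535 higher and 470 lower probe sets, the other scalings gave 487 to 559 higher and 328 to 414 lower. With no filter there were 1052 higher and 790 lower. With a filter on the highest value at the 75th percentile there were 183 and 210, and with a filter on the mean of the 4 values 280 and 365. Stricter filters test fewer probe sets by construction. Leaving the wild-type or the gl1 column out of the normalization and filter, an alternative chosen after seeing the data, gave 508 to 534 higher and 421 to 455 lower. Of 459 named genes and list members, without the list of annotated pseudogenes, 106 were 2-fold apart, and 90 of them were so under every scaling. None of the 106 changed sign under the scalings tried. Those that dropped below 2-fold numbered 9 with deposited values, 10 after median subtraction, 6 under cyclic loess and 4 with the 2 columns normalized alone; those that rose past 2-fold numbered 48, 37, 1 and 0 in the same order. The list of 923 annotated pseudogenes, left out of these counts, moved more. In it 63 were 2-fold higher in the main values and 395 in the deposited values. After median subtraction 316 were higher, and under cyclic loess 52. The cause was not tested. Signals near the floor limit the low genes, since the deposited 25th percentile was 4.12 in ttg1 and 4.93 in gl3 egl3.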

Other observations

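Annotated pseudogenes were mostly of low signal, with 56 of 923 above the filter. Of the 923, 63 were 2-fold higher in gl3 egl3 (6.83% against 4.87% of all named genes) and 8 were lower (0.867% against 3.15%), and in the deposited values 395 were higher and 1 was lower. UPB1, a bHLH factor of peroxidase control in roots, read 8.12 in gl3 egl3 and 6.58 in ttg1, beside 7.05 in wild type and 5.27 in gl1. Among sugar transporters of the SWEET family, looked at after the values were seen, 14 are named. SWEET6 and SWEET8, both below the filter, were 2-fold higher, which is 2 of 14 beside 4.87% of all named genes. The difference of SWEET8, 1.06, was 0.83 under cyclic loess and 0.99 with the 2 columns normalized alone.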
